A study of Mus musculus with 10 samples.

Results

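Wnt target and Wnt feedback genes were followed through the cells of the mouse small intestinal crypt. The set holds 10 genes, Axin2, Rnf43, Znrf3, Sox9, Myc, Myb, Ccnd1, Ephb2, Ephb3 and Cd44, which were taken by gene symbol from 17743 genes with a transcript in the wells used. All 10 were listed in every library, and all 10 passed the filter on low counts in every comparison as reported here. The material was dissociated crypts of C57Bl/6 mice. In 3 libraries, small clusters of neighbouring cells, labelled as doublets or triplets, were picked by mouth pipette after mild dissociation, and in 7 libraries single cells were sorted. Each library is 1 plate of 384 wells processed with CEL-seq2, which tags the 3′ end of each polyadenylated molecule with a random barcode, so that transcripts rather than reads are counted. Neither the age nor the sex of the mice is given in the labels. How many mice the libraries stand for is not given either, and each p-value is therefore a statement about spread from library to library, part of which may be technical.

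Wnt ligands in the crypt stabilise β-catenin, which enters the nucleus and, with TCF and LEF factors bound to DNA, switches on a set of target genes. Some of these targets act back on the pathway: Axin2 is a scaffold of the complex that degrades β-catenin, and Rnf43 and Znrf3 are membrane ubiquitin ligases that remove Wnt receptors from the cell surface. Others carry crypt functions: Sox9, Myc and Myb are transcription factors of progenitors, Ccnd1 encodes cyclin D1, Ephb2 and Ephb3 are receptors that position cells along the crypt, and Cd44 is a hyaluronan receptor of crypt base cells. Stem cells at the crypt base carry Lgr5, a receptor for R-spondins, which counter Rnf43 and Znrf3, and Paneth cells beside them secrete Wnt3.

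Promoter sequences of 6 of the 10 genes were matched in RefSeq, as 300 bases from 250 before to 50 after the transcription start on the GRCm38.p6 assembly. Of these, 4 are shown for genes described in the results that follow. Axin2 and Cd44 were high in Lgr5-positive wells, and Myb in cycling and Lgr5-positive wells. Ephb3 was high in Lgr5-positive wells and, on 10 transcripts, in sorted Paneth wells. Each promoter is written 5′ to 3′ on the strand of the gene, and capitals mark matches to CTTTG, the shared core of the TCF motifs CTTTGAT and CTTTGTT, on either strand. The Axin2 promoter spans chr11:108920099-108920398 on the plus strand, that of Ephb3 chr16:21204545-21204844 on the plus strand, that of Cd44 chr2:102901616-102901915 on the minus strand, and that of Myb chr10:21160935-21161234 on the minus strand.
Axin2: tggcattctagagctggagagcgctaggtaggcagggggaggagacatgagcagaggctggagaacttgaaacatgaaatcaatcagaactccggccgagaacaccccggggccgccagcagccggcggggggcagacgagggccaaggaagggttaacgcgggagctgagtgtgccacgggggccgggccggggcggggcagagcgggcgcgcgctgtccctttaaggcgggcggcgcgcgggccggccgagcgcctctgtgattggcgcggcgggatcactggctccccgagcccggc
Ephb3: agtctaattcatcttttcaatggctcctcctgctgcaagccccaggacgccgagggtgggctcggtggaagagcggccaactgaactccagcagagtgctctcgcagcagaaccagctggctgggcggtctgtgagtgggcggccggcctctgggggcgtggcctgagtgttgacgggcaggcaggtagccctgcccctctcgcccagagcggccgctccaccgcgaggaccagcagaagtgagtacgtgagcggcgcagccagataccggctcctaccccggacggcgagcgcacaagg
Cd44: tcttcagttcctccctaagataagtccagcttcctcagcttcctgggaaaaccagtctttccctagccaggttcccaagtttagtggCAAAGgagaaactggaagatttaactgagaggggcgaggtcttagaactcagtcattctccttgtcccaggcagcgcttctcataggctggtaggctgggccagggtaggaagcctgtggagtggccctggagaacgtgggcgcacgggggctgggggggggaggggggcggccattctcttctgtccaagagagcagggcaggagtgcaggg
Myb: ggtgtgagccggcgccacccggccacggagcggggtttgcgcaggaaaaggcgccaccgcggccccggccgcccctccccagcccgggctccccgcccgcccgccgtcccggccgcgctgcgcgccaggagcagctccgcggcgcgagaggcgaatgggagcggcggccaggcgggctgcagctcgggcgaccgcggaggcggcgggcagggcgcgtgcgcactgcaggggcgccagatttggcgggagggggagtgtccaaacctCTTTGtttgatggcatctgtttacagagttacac
The core stood once in the Cd44 window, on the other strand, and once in the Myb window, 16 bases after the start, where it was part of CTTTGTT. It was not in these letters of Axin2, Ephb2, Ephb3 or Rnf43. Across 32851 RefSeq mouse promoter windows of 300 bases, 53.9% held CTTTG, 3.73% held CTTTGAT and 5.85% held CTTTGTT, each on either strand and with the shorter motif contained in the longer ones. The matches describe these letters only. In GENCODE vM21 on GRCm38, all 10 are protein-coding genes. Axin2 lies at chr11:108920349-108950783, Sox9 at chr11:112782224-112787760, Ephb3 at chr16:21204755-21223305, Cd44 at chr2:102811141-102901665, Myb at chr10:21124935-21160984 and Ccnd1 at chr7:144929931-144939925. Axin2, Rnf43, Myb, Ccnd1 and Cd44 each overlap an annotated gene on the opposite strand, and Rnf43 also overlaps 1110028F11Rik on its own strand. The strand setting of the counting is not given in the sources used here, so reads of such pairs may be shared.

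Wells with at least 1000 endogenous transcripts were used. The picked libraries gave 501 such wells with 821829 to 1232610 transcripts each in all, and the sorted libraries gave 1615 wells with 1022860 to 4832580. Wells were classed by fixed rules: Lgr5-positive (any Lgr5 transcript), cycling Lgr5-negative (no Lgr5, any Mki67), goblet (Muc2, Fcgbp, Zg16 and Clca3 together at least 2% of transcripts), Paneth (Defa genes at least 5%) and absorptive (Apoa1 and Apoa4 at least 0.5%). Of the sorted wells that met exactly 1 rule, 360 were Lgr5-positive, 424 cycling Lgr5-negative, 229 goblet, 24 Paneth and 73 absorptive, while 152 met several rules and 353 met none. Goblet, Paneth and absorptive wells that met exactly 1 rule hold no Lgr5 and no Mki67 by construction. They are 229 of 362 goblet, 24 of 37 Paneth and 73 of 80 absorptive sorted wells. Low levels of genes that go with Lgr5 or Mki67 in these classes are therefore partly fixed by the rules. Of the picked wells, 56 were Lgr5-positive and 202 cycling Lgr5-negative. Transcripts were summed per library and class where a class had at least 5 wells, which left 7 libraries for the first 3 classes, 3 for Paneth (sorted replicates 1, 2 and 4) and 5 for absorptive (sorted replicates 1 to 5). Levels are CPM, a gene's transcripts scaled to a common total with TMM factors, and comparisons are log2 differences of CPM + 10 from limma with the library as a block, adjusted by Benjamini-Hochberg over 10457 genes. A class named by rule is not a pure cell type. In sorted libraries, 8 goblet markers summed to between 112601 and 190903 CPM in goblet wells. The 8 Paneth markers summed to between 356803 and 389845 CPM in Paneth wells. Both lists include genes of the class rules, so these sums were partly fixed by the rules. The Paneth markers reached 27059 CPM in goblet wells. The 10 cycling markers overlapped, at 2208 to 3882 CPM in Lgr5-positive and 2782 to 4965 CPM in cycling Lgr5-negative wells. No rule removes tuft or enteroendocrine cells. The 5 listed tuft markers summed to 0 to 1522 CPM (median 213) in Lgr5-positive and 0 to 116 CPM (median 4.17) in cycling Lgr5-negative wells. The 8 enteroendocrine markers reached 1215 CPM (median 73.3) and 282 CPM (median 40.2) in the same order. The part of such cells in the levels of the 10 genes was not tested. In sums over wells, fewer cells that hold a transcript and fewer transcripts per cell cannot be told apart. Overlap of library ranges between groups was examined for the 10 genes only, so the share of all genes without overlap is not known.

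**Figure D1:**
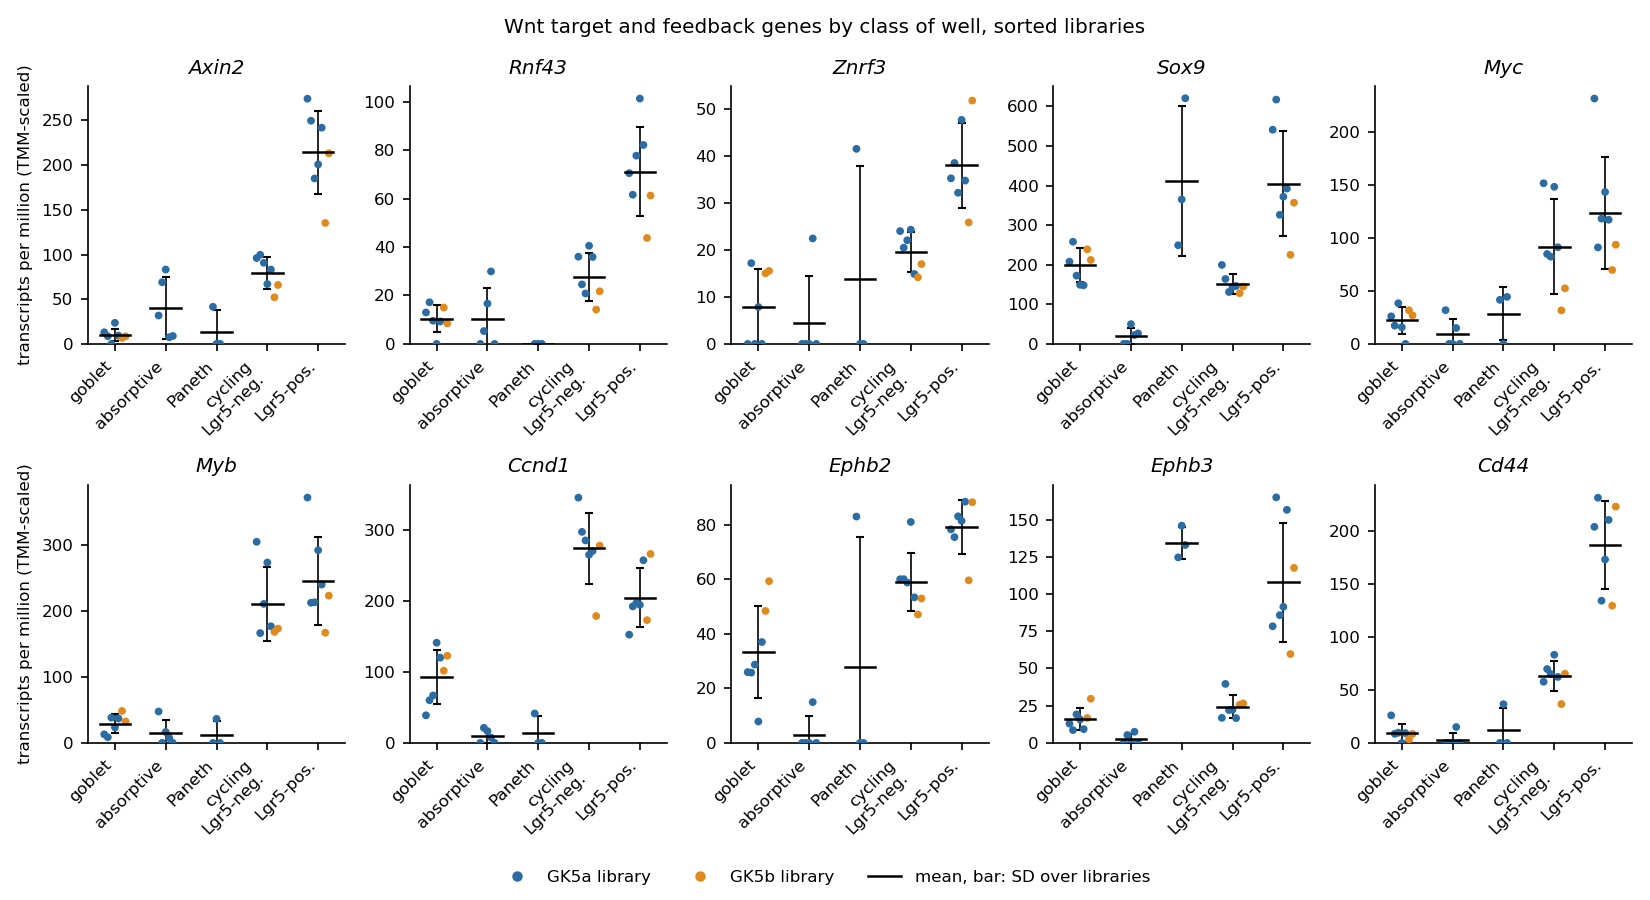
Levels of the 10 genes in sorted wells by class, in CPM; each point is 1 library's sum, blue for code GK5a and orange for GK5b, the short line is the mean and the bar is the SD over libraries. Sox9 has means of 411 in Paneth and 404 in Lgr5-positive wells, Ccnd1 has its highest mean, 275, in cycling Lgr5-negative wells, and in absorptive wells Axin2 has the highest mean of the 10 genes, 40.1.

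Dividing wells without Lgr5 held less Axin2, Rnf43, Sox9, Ephb3 and Cd44 than Lgr5-positive wells. Against Lgr5-positive wells, these 5 of the 10 genes were lower in cycling Lgr5-negative wells and none was higher, in a comparison in which 1.51% of all genes tested were called in either direction and 1.19% were called lower. The median log2 difference was -0.91 over the 10 genes and -0.01 over all genes. Ephb3 showed the largest of these differences and its cycling mean was 0.225 times its Lgr5-positive mean. Ccnd1, Myc, Myb, Ephb2 and Znrf3 did not pass the test.

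Among the feedback genes, Axin2 ranged from 52.2 to 99.7 CPM with a median of 83.2 in the 7 sums of cycling Lgr5-negative wells, against 135 to 274 CPM with a median of 213 in those of Lgr5-positive wells. The 2 classes did not overlap, and cycling was lower in each of the 7 libraries. The difference was -1.33 ± 0.35 (log2 ± SE, adjusted p = 0.0457, limma). Rnf43 ranged from 14.2 to 40.5 CPM (median 24.6) in cycling wells and from 43.8 to 101 CPM (median 70.5) in Lgr5-positive wells, with a difference of -1.12 ± 0.29 (adjusted p = 0.0449, limma). These ranges also stood apart. Znrf3, the close relative of Rnf43, averaged 19.6 ± 4.22 CPM in cycling wells and 38.0 ± 8.98 CPM in Lgr5-positive wells (SD, n = 7 each). It was lower in every library, but its difference of -0.69 ± 0.33 missed the threshold (adjusted p = 0.55, limma).

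Sox9 ranged from 128 to 199 CPM (median 145) in cycling Lgr5-negative wells and from 225 to 617 CPM (median 372) in Lgr5-positive wells, again without overlap, at -1.31 ± 0.32 (adjusted p = 0.0302, limma). Ephb3 ranged from 16.6 to 39.6 CPM (median 22.3) in cycling wells and from 59.7 to 165 CPM (median 91.4) in Lgr5-positive wells, at -1.74 ± 0.24 (adjusted p = 3.68e-05, limma). Cd44 ranged from 36.6 to 83.1 CPM (median 65.0) in cycling wells and from 129 to 231 CPM (median 204) in Lgr5-positive wells, at -1.43 ± 0.31 (adjusted p = 0.0113, limma). For all 3 genes the lowest Lgr5-positive library lay above the highest cycling library.

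The other genes differed less between the 2 classes. Ephb2, which shares ephrin-B ligands with Ephb3, averaged 59.1 ± 10.8 CPM in cycling wells and 79.3 ± 9.88 CPM in Lgr5-positive wells (-0.38 ± 0.36, adjusted p = 1, limma), and was lower in each of the 7 libraries. Myc averaged 91.6 ± 44.8 CPM in cycling wells and 123 ± 53.1 CPM in Lgr5-positive wells (-0.44 ± 0.32, adjusted p = 0.924, limma), and Myb 211 ± 56.5 CPM and 246 ± 67.1 CPM in the same order (-0.21 ± 0.37, adjusted p = 1, limma). The ranges of Myc and of Myb overlapped between the classes. Ccnd1 averaged 275 ± 50.04 CPM in cycling wells and 205 ± 42.1 CPM in Lgr5-positive wells, higher in cycling wells in each of the 7 libraries, but the difference of 0.41 ± 0.34 did not pass (adjusted p = 0.963, limma).

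An alternative called equal depth, chosen after seeing the data, took the 2 classes of a comparison alone, in the libraries that hold both, and thinned their sums to the same depth. It therefore changes the depth and the sums that enter the fit together. For cycling against Lgr5-positive wells in the 7 libraries, 15.8% of all genes were called, 847 higher and 800 lower against 34 and 124 before. Then Znrf3 (-0.61, adjusted p = 0.00884, limma) and Myc (-0.46, adjusted p = 0.0164) were called lower as well, and Ccnd1 was called higher (0.45, adjusted p = 0.00989). Ephb3 was called with any one sorted library left out, but the count of called genes among the 10 fell to 1 without sorted replicate 1, 5 or 7, to 2 without sorted replicate 2 and to 3 without sorted replicate 4 or 6. Over all genes, 64 to 139 were called with a library left out, against 158 with all libraries.

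**Figure D2:**
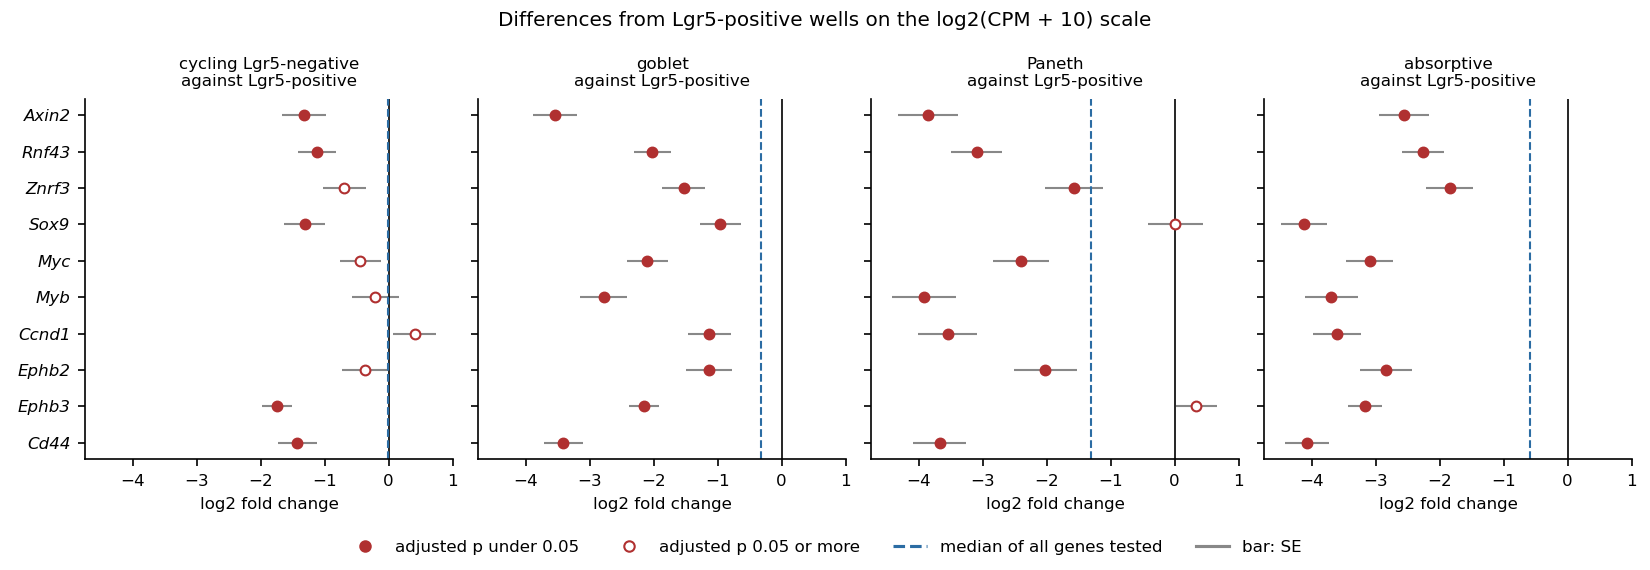
Log2 differences with standard errors, from limma, for each of the 10 genes in cycling Lgr5-negative, goblet, Paneth and absorptive wells against Lgr5-positive wells; filled points passed the test and the dashed line is the median of all genes. Sox9 and Ephb3 lie near 0 in Paneth wells (0.01 and 0.34), where the other 8 genes lie below the all-gene median of -1.30.

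In goblet wells all 10 genes were lower than in Lgr5-positive wells, against a background of 39.8% of genes called, 29.7% lower and 10.1% higher, and a median log2 difference of -0.32 over all genes. Goblet wells that also held Lgr5 or Mki67 met several rules and are not in these sums. At equal depth all 10 were called lower again, among 38.6% of genes called. Axin2 averaged 9.93 ± 7.17 CPM in goblet wells and 214 ± 46.4 CPM in Lgr5-positive wells (SD, n = 7 each), with its 7 goblet sums between 0 and 23.6 CPM (-3.54 ± 0.35, adjusted p = 2.97e-09, limma). Cd44 averaged 9.31 ± 8.17 CPM in goblet wells (-3.41 ± 0.31, adjusted p = 6.8e-10) and Myb 28.8 ± 14.4 CPM (-2.78 ± 0.37, adjusted p = 5.72e-07). Their differences were the largest of the 10 in this comparison. Sox9 kept the smallest difference: its goblet sums ranged from 148 to 258 CPM with a median of 208, which overlapped the Lgr5-positive range, at -0.96 ± 0.32 (adjusted p = 0.0173, limma). The Sox9 call was lost without sorted replicate 5 (adjusted p = 0.0558). With a pseudocount of 1 in place of 10, and also where wells that met several rules were kept in each of their classes, 7 of the 10 genes were called, without Sox9 (adjusted p = 0.243 and 0.095 in that order), Ccnd1 (0.222 and 0.0867) and Ephb2 (0.166 and 0.17, limma). Keeping such wells in each class called 2708 genes in all, against 4162 as reported. The total at a pseudocount of 1 is not given here. With the GK5b libraries alone Sox9 (adjusted p = 0.561) and Ephb2 (0.415, limma) were not called, and with the GK5a libraries alone Ccnd1 was not (0.0568), nor with wells thinned before classing (0.0606) or Lgr5-positive wells defined from 2 transcripts (0.109).

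Against cycling Lgr5-negative wells, 7 of the 10 genes were lower in goblet wells, where 34.6% of all genes were called, 25.4% lower and 9.22% higher. Myb, Axin2, Cd44, Myc, Ccnd1, Rnf43 and Znrf3 were the 7. Ccnd1 averaged 93.2 ± 38.2 CPM in goblet wells and 275 ± 50.04 CPM in cycling wells (-1.54 ± 0.34, adjusted p = 0.000688, limma). Sox9, which is needed for Paneth cells to form, had the opposite sign: 198 ± 43.0 CPM in goblet wells and 151 ± 24.3 CPM in cycling wells, a difference of 0.35 ± 0.32 that did not pass (adjusted p = 0.413, limma) but did at equal depth (0.56, adjusted p = 0.00542). Ephb3 was at a similar low level in both, 16.0 ± 7.15 CPM in goblet wells and 24.2 ± 7.79 CPM in cycling wells (-0.41 ± 0.24, adjusted p = 0.188). At equal depth, where 35.7% of genes were called, Rnf43 (adjusted p = 0.0699) and Znrf3 (adjusted p = 0.0948) were no longer called lower and Ephb2 was (-0.74, adjusted p = 0.0448).

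In Paneth wells 8 of the 10 genes were lower than in Lgr5-positive wells, and Sox9 and Ephb3 did not pass the test. In that comparison 72.7% of all genes were called, 70.9% as lower and 1.74% as higher, so 8 lower genes of 10 is near the background. Sox9 was at 249, 365 and 620 CPM in the 3 Paneth sums, against a range of 225 to 617 CPM in Lgr5-positive wells (0.01 ± 0.43, adjusted p = 0.988, limma). Ephb3, a receptor that is needed for Paneth cells to settle at the crypt base, was at 125, 146 and 133 CPM in Paneth wells, against 59.7 to 165 CPM in Lgr5-positive wells (0.34 ± 0.32, adjusted p = 0.338, limma). Both Paneth ranges overlapped the Lgr5-positive range. The 20 Paneth wells behind these sums held 76985 transcripts in all, of which 30 were Sox9 (390 CPM, exact Poisson 95% interval 263 to 556) and 10 were Ephb3 (130 CPM, 62.3 to 239). Of the other genes, Myc and Ephb2 had 2 transcripts each, Axin2, Znrf3, Myb, Ccnd1 and Cd44 had 1 each, and Rnf43 had none, for which a count of 3 would correspond to 39.0 CPM. These intervals cover counting error only.

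In the equal-depth fit, which held only the 3 libraries with both classes, 0.191% of genes and none of the 10 were called by limma, with 3739 genes at an unadjusted p under 0.05, Cd44 at -3.48 and Axin2 at -3.18 (adjusted p = 0.0904 each, limma), Ephb3 at 1.51 (adjusted p = 0.142) and Sox9 at 0.51 (adjusted p = 0.494). The all-gene median was then -0.59. The picked libraries gave 1 Paneth sum, with no test: Axin2 was at 196 CPM (6 transcripts), Sox9 at 65.5 CPM and Ephb3 at 0 there, against 129 ± 46.1, 84.6 ± 15.2 and 62.1 ± 40.7 CPM for these genes in picked Lgr5-positive wells (SD, n = 3). That Paneth sum came from 5 wells of 1 library, and 1 transcript corresponds to 32.7 CPM in it. It holds too few transcripts to place these genes above or below the picked Lgr5-positive means.

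Absorptive wells were low in all 10 genes. All 10 were lower than in Lgr5-positive wells, and all 10 were lower than in cycling Lgr5-negative wells, where the background was 60.1% and 56.2% of genes called and 46.5% and 43.6% called lower. At equal depth these counts were 10 and 9 of the 10, among 52.4% and 47.9% of genes called. Sox9 was at 0, 0, 49.9, 22.4 and 26.6 CPM in the 5 absorptive sums (-4.13 ± 0.36 against Lgr5-positive wells, adjusted p = 1.02e-10, limma), and Cd44, Ephb2 and Znrf3 were listed at 0 in 4 of the 5. Ccnd1 averaged 9.07 ± 9.64 CPM in absorptive wells and 275 ± 50.04 CPM in cycling wells (-4.02 ± 0.38, adjusted p = 7.46e-10). Every absorptive sum of each gene lay below every Lgr5-positive sum, but how many of all genes stood apart in this way was not counted. Axin2 was uneven: it was at 31.8, 69.0, 83.2, 7.48 and 8.86 CPM in sorted replicates 1 to 5, with 22 transcripts in 72 wells, and its mean of 40.1 ± 34.7 CPM was followed by that of Sox9 at 19.8 ± 20.9 CPM (SD, n = 5 each). The Axin2 difference from cycling wells was -1.23 ± 0.39 (adjusted p = 0.00888, limma) and was lost without sorted replicate 5 (adjusted p = 0.0705), as were those of Rnf43 without sorted replicate 1 (adjusted p = 0.076) and Znrf3 without sorted replicate 2 (adjusted p = 0.058).

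The share of wells with a transcript is given here for Axin2 and Sox9. After each well was thinned to 2000 transcripts, Axin2 was found in 14.1% of 405 cycling, 1.52% of 197 goblet and 2.17% of 46 absorptive wells, against 34.9% of 341 Lgr5-positive wells (29.8% to 40.2%, exact binomial 95% interval). Before thinning these shares were 48.8% of 424, 6.55% of 229, 13.7% of 73 and 71.7% of 360 wells. Sox9 was found in 24.2% of cycling, 28.9% of goblet, 52.6% of 19 Paneth (28.9% to 75.6%) and 2.17% of absorptive thinned wells, against 57.2% of Lgr5-positive thinned wells. Unthinned, the Sox9 shares were 71.2%, 61.1%, 70.8%, 9.59% and 87.8% for the same classes. Median depth before thinning was 12413 transcripts in cycling, 6656 in goblet, 3740 in Paneth and 4104 in absorptive wells, against 8554 in Lgr5-positive wells. The Axin2 share of goblet wells was no higher than that of absorptive wells, while the Sox9 shares of goblet and Paneth wells lay above the absorptive one. Axin2 was in none of the 19 thinned Paneth wells (exact binomial 95% interval up to 17.6%). Sox9 was close in Paneth and Lgr5-positive wells, with means of 411 and 404 CPM and pooled levels of 390 and 400 CPM. Its share of Lgr5-positive wells, 57.2%, lay within the interval of the Paneth share.

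Lgr5 and Mki67 were then separated in wells that met none of the secretory and absorptive rules. Mki67 encodes a protein of dividing nuclei. Of the Lgr5-positive wells, 188 in 7 libraries also held Mki67 and 172 in 6 libraries did not. Their levels come from a separate fit over 20 sums and 10092 genes, so they differ slightly from those above.

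**Figure D3:**
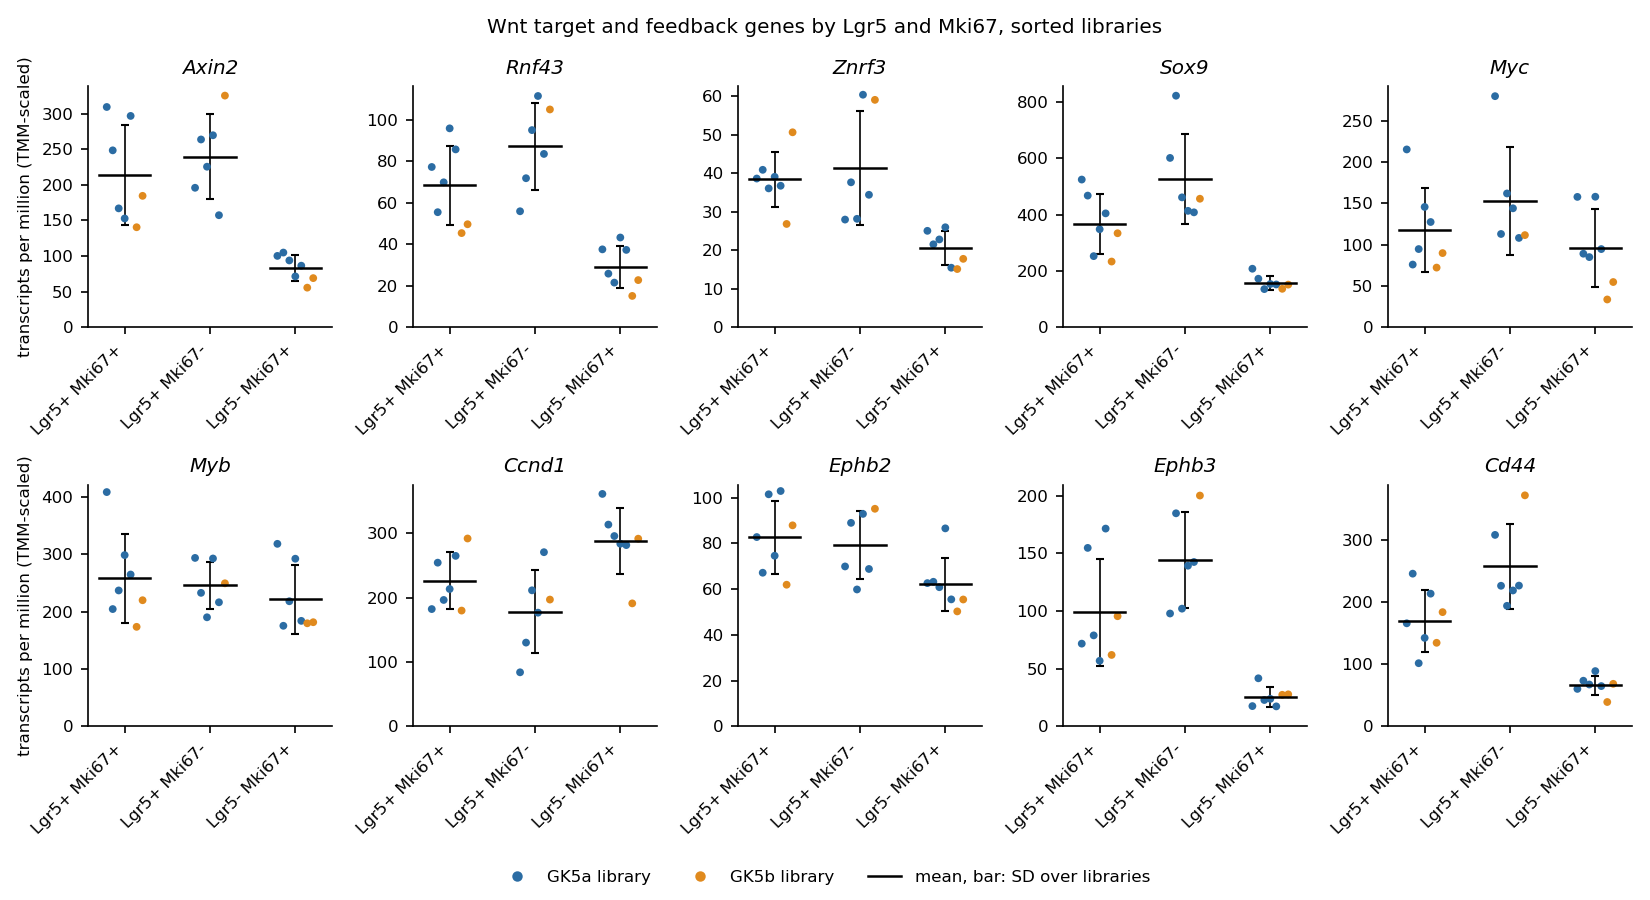
Levels of the 10 genes, in CPM, in sorted wells that are Lgr5-positive and Mki67-positive, Lgr5-positive and Mki67-negative, or Lgr5-negative and Mki67-positive; each point is 1 library's sum. For Ephb3, Axin2, Cd44, Sox9, Rnf43 and Znrf3 the Lgr5-positive points of dividing wells lie above the Lgr5-negative points.

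Among dividing wells, Lgr5 status went with the feedback genes and with crypt base receptors. In Mki67-positive wells, 6 of the 10 genes were higher in Lgr5-positive than in Lgr5-negative wells and none was lower, where 4.99% of all genes were called and 2.27% were called higher. The median log2 difference of the 10 genes was 0.84, against -0.01 over all genes. Ephb3 ranged from 56.8 to 172 CPM (median 78.9) in Lgr5-positive dividing wells and from 17.3 to 41.7 CPM (median 23.8) in Lgr5-negative dividing wells (1.55 ± 0.18, adjusted p = 8.87e-06, limma). Axin2 ranged from 140 to 309 CPM (median 184) against 55.6 to 105 CPM (median 86.5), at 1.23 ± 0.17 (adjusted p = 7.62e-05). Neither pair of ranges overlapped. Cd44 (1.22 ± 0.15, adjusted p = 3.44e-05), Sox9 (1.12 ± 0.11, adjusted p = 1.84e-06), Rnf43 (1.01 ± 0.16, adjusted p = 0.000678) and Znrf3 (0.66 ± 0.18, adjusted p = 0.0287) were higher as well. Ccnd1 averaged 226 ± 44.2 CPM in Lgr5-positive and 288 ± 50.9 CPM in Lgr5-negative dividing wells (SD, n = 7 each; -0.34 ± 0.16, adjusted p = 0.27). Median depth was close in the 2 classes, at 13866 and 12413 transcripts per well. Znrf3 was no longer called without sorted replicate 2, 3, 5 or 7 (adjusted p up to 0.107). With wells thinned to 2000 transcripts before classing, 9 of the genes were tested and 1 was called, among 142 genes called in all. The median was then -0.34 over the genes of the set and -0.53 over all genes. The GK5b libraries alone also called 1 of the 10, among 7 genes called in all.

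Within Lgr5-positive wells, Mki67 status was compared next. Of the 10 genes, only Sox9 passed, with 366 ± 107 CPM in Mki67-positive wells (n = 7) and 527 ± 161 CPM in Mki67-negative wells (n = 6), at -0.45 ± 0.12 (adjusted p = 0.0213, limma), where 7.98% of all genes were called, 6.01% higher and 1.96% lower. Its Mki67-positive sums ran from 233 to 525 CPM and its Mki67-negative sums from 408 to 822 CPM, so the 2 overlapped. Cd44 (-0.51 ± 0.16, adjusted p = 0.0546) and Ephb3 (-0.53 ± 0.19, adjusted p = 0.0906) had the same sign, and Ccnd1 the opposite one (0.46 ± 0.17, adjusted p = 0.0994), without passing. Axin2 was close in both, with 214 ± 69.9 CPM in Mki67-positive and 239 ± 59.5 CPM in Mki67-negative wells (-0.10 ± 0.18, adjusted p = 0.792). Mki67-positive wells were deeper, with a median of 13866 transcripts against 5679 in Mki67-negative wells, and the Sox9 call was lost without sorted replicate 2 (adjusted p = 0.0698) or 3 (adjusted p = 0.0981).

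**Figure D4:**
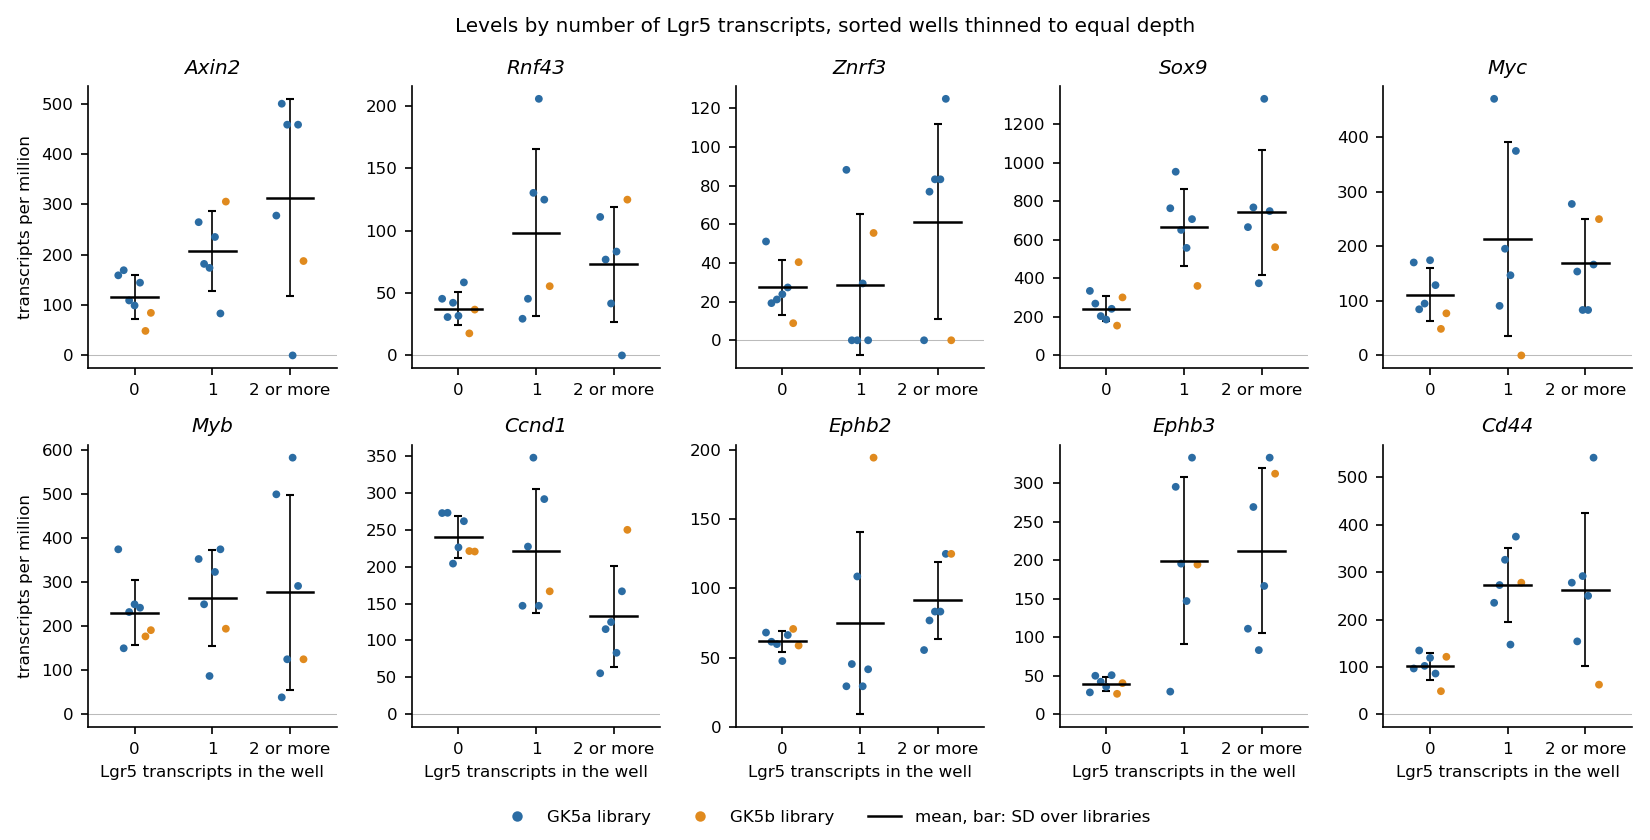
Level of each gene, in CPM, in sorted wells thinned to 2000 transcripts with 0, 1 or at least 2 Lgr5 transcripts after thinning; each point is 1 library, with mean and SD. Sox9, Ephb3 and Cd44 have higher means at 1 and at least 2 than at 0 Lgr5 transcripts, whereas Ccnd1 has its lowest mean, 133, at 2 or more.

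The number of Lgr5 transcripts gave a finer scale. Wells without the secretory or absorptive programmes were thinned to 2000 transcripts, which left 863 wells with 0, 109 with 1 and 60 with at least 2 Lgr5 transcripts, in 7, 6 and 6 libraries. Sox9 averaged 242 ± 64.6, 667 ± 200 and 743 ± 323 CPM at 0, 1 and at least 2 Lgr5 transcripts. Ephb3 averaged 39.2 ± 9.58, 199 ± 108 and 213 ± 107 CPM, and Cd44 101 ± 28.4, 272 ± 78.1 and 263 ± 162 CPM. For these 3 genes the means of the upper steps lay within 1 SD of each other. Axin2 averaged 116 ± 43.5, 207 ± 78.6 and 314 ± 196 CPM, and Ccnd1 240 ± 28.4, 221 ± 83.7 and 133 ± 68.8 CPM. Myb had close means, at 231 ± 73.4, 264 ± 110 and 277 ± 222 CPM. These are descriptions with no test, and the last step rests on few transcripts per library.

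Other genes of the pathway followed the members in part. Of 21 further crypt Wnt targets, 15 were tested and 8 were lower and none higher in cycling Lgr5-negative than in Lgr5-positive wells, with a median log2 difference of -1.04. They included Ascl2, a transcription factor of the stem cell state (30.4 ± 11.8 CPM in cycling and 159 ± 64.9 CPM in Lgr5-positive wells, -2.02 ± 0.33, adjusted p = 0.000531, limma), Slc12a2, an ion cotransporter (497 ± 60.4 CPM and 1547 ± 363 CPM, -1.60 ± 0.20, adjusted p = 7.78e-06), and Tnfrsf19, a Wnt-induced receptor of the TNF family (1.52 ± 1.67 CPM and 30.9 ± 14.3 CPM, -1.75 ± 0.19). Among dividing wells, 10 of the 15 were higher where Lgr5 was present. Tnfrsf19 is in both counts, but it had no transcript in sorted goblet or Paneth sums and few in cycling ones. It thus passed the filter on low counts mainly through Lgr5-positive sums, and its calls lend the pattern no support. Of 11 receptors tested out of 17, Fzd2 and Fzd7, both Frizzled receptors, were lower in cycling wells. Of the machinery, where 1.19% of all genes were called lower, 1 of 15 transduction genes (Csnk1e), 1 of 11 nuclear partners (the corepressor Tle3) and 1 of 4 ligand and secretion genes (Sfrp5, a secreted Wnt antagonist) was lower, and none was higher. Sfrp5 averaged 9.96 ± 5.98 CPM in cycling wells and 47.3 ± 7.94 CPM in Lgr5-positive wells (-1.55 ± 0.23, adjusted p = 0.000134).

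In differentiated wells the same lists differed by class. Of the 15 further targets, 13 were lower and 1 was higher in goblet wells, the same counts held in Paneth wells, and 14 were lower in absorptive wells. Over all genes 29.7% were called lower in goblet, 70.9% in Paneth and 46.5% in absorptive wells, and in the equal-depth fit of Paneth wells no gene was called lower and 20 were called higher. The higher one was Mmp7 in both secretory classes, a protease that activates defensins, at 3584 ± 707 CPM in Paneth and 1142 ± 726 CPM in goblet wells, against 76.9 ± 81.1 CPM in Lgr5-positive wells (6.48 ± 0.38 and 4.01 ± 0.28 on the log2 scale). Mmp7 is also in the list of Paneth markers. Wnt3 averaged 77.2 ± 59.5 CPM in Paneth and 3.56 ± 3.13 CPM in Lgr5-positive wells (2.72 ± 0.29, adjusted p = 6.15e-09, limma). It was not called at equal depth (3.35, adjusted p = 0.0904, limma). Over the 3 Paneth sums together, 3 transcripts correspond to 39.0 CPM, so its Paneth level rests on few transcripts. In absorptive wells partners of Myc and of cyclin D1 differed in opposite directions: Mxd1, which competes with Myc for Max, was at 1067 ± 257 CPM against 21.9 ± 9.25 CPM in Lgr5-positive wells (4.91 ± 0.38, adjusted p = 7.94e-12), Max at 404 ± 96.2 CPM against 83.7 ± 24.3 CPM (2.20 ± 0.31), and Cdk4, the kinase of cyclin D1, at 29.4 ± 14.6 CPM against 398 ± 40.4 CPM (-3.40 ± 0.27). Tcf7l2, the main TCF factor of the crypt, was higher in goblet wells, at 200 ± 51.2 CPM against 99.9 ± 21.9 CPM in Lgr5-positive wells (0.93 ± 0.31, adjusted p = 0.0172).

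**Figure D5:**
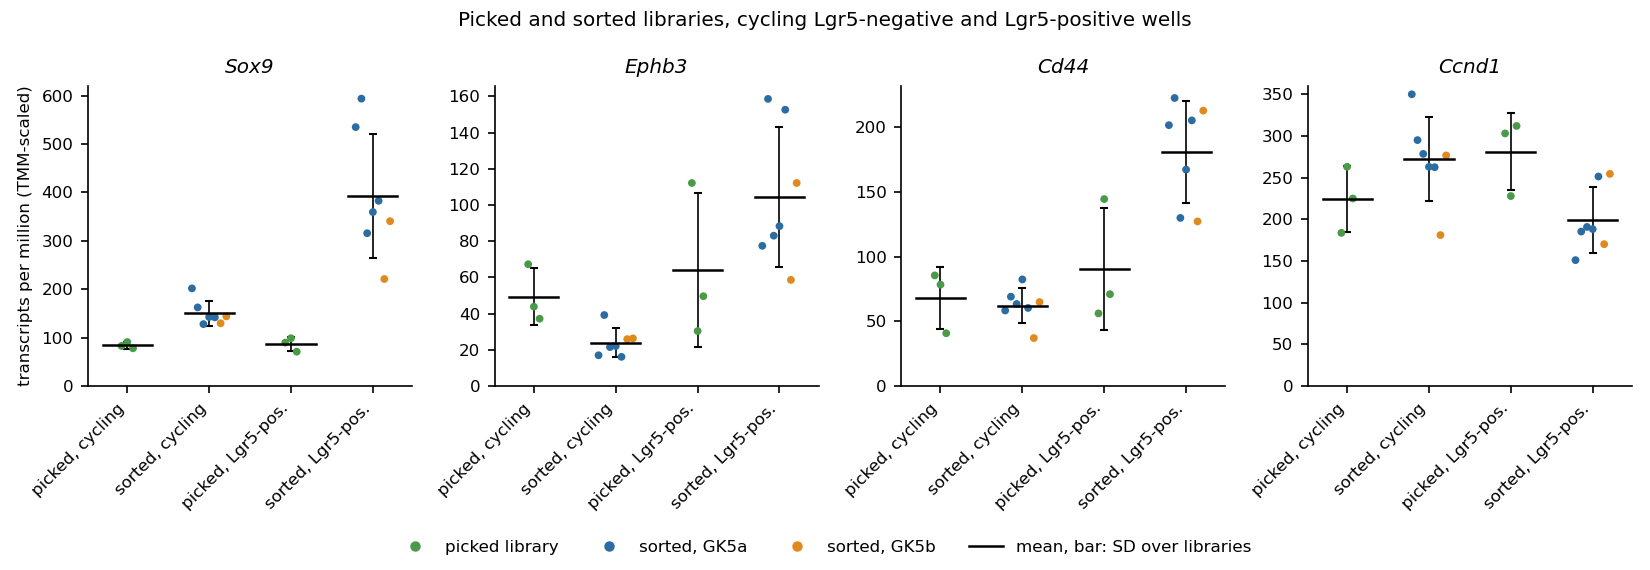
Levels of Sox9, Ephb3, Cd44 and Ccnd1, in CPM on a common scale, in picked and sorted libraries, within cycling Lgr5-negative wells and within Lgr5-positive wells; each point is 1 library, the short line the mean and the bar the SD. In Lgr5-positive wells Sox9 lies between 70.9 and 98.7 in the 3 picked libraries and between 221 and 594 in the 7 sorted ones.

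Picked and sorted libraries differed in Sox9. Over all used wells, Sox9 was at 105, 110 and 77.3 CPM in the 3 picked libraries, against 162 to 284 CPM with a median of 204 in the 7 sorted ones, without overlap (-1.14 ± 0.18, adjusted p = 0.000697, limma on log2(CPM + 1)). It was the only one of the 10 to pass, where 30.2% of all genes were called, 1479 higher and 1673 lower. With library totals in place of TMM the split was 837 higher and 3472 lower, the all-gene median was -0.40 in place of -0.09, and Sox9 stayed lower. Ephb3 was at 115, 51.5 and 43.4 CPM in picked libraries and averaged 44.9 ± 13.7 CPM in sorted ones (0.55 ± 0.32, adjusted p = 0.202), with picked replicate 1 above the other 2. Without sorted replicate 6, Axin2, Myc, Myb and Cd44 were called lower as well (adjusted p from 0.0222 to 0.0427), which makes 5. Picked and sorted libraries also differ in experiment code and in how the tissue was dissociated, and a picked well holds several cells, so these cannot be told apart.

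Within Lgr5-positive wells the Sox9 gap was wider. It averaged 86.5 ± 14.2 CPM in picked (n = 3) and 393 ± 129 CPM in sorted (n = 7) Lgr5-positive wells (-2.04, adjusted p = 0.000123, limma), and Cd44 (-0.9998, adjusted p = 0.0215) and Myb (-0.70, adjusted p = 0.0364) were lower and Ccnd1 (0.59, adjusted p = 0.0401) higher in picked wells, among 20.2% of genes called. Among cycling Lgr5-negative wells, where 25.7% were called, Sox9 (-0.75, adjusted p = 0.00426) and Myb (-0.76, adjusted p = 0.0197) were lower and Ephb3 was higher in picked wells (1.09, adjusted p = 0.0131). Ephb3 was at 67.3, 43.9 and 37.2 CPM in those picked sums, against 16.1 to 39.2 CPM with a median of 22.1 in sorted sums.

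The difference between cycling and Lgr5-positive wells was smaller in picked libraries for Sox9 and Ephb3. Sox9 averaged 83.9 ± 6.50 CPM in cycling and 86.5 ± 14.2 CPM in Lgr5-positive picked wells, whereas in sorted libraries it averaged 150 ± 25.5 CPM in cycling and 393 ± 129 CPM in Lgr5-positive wells. The log2 difference between the classes was 1.25 ± 0.20 less negative in picked than in sorted libraries for Sox9 (adjusted p = 0.0106, limma) and 1.52 ± 0.32 for Ephb3 (adjusted p = 0.0356), while Cd44 missed (1.08 ± 0.28, adjusted p = 0.0698). This test was chosen after seeing the data and called 0.702% of 10406 genes. Within the picked libraries alone, 0.0688% of 8721 genes and none of the 10 were called by limma between the classes, with 588 genes at an unadjusted p under 0.05. The 8 Paneth markers summed to between 3413 and 12449 CPM in picked Lgr5-positive wells and between 418 and 2362 CPM in sorted ones. The 10 stem markers, which include the rule gene Lgr5 and the member Axin2, summed to between 714 and 1223 CPM in picked Lgr5-positive wells. In sorted Lgr5-positive wells the stem markers summed to between 1822 and 3968 CPM. The part of these differences in the Sox9 and Ephb3 values was not tested.

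Genes with a like pattern were named by the highest Pearson correlation of log2(CPM + 10) over the 29 sorted sums, out of 6653 genes. The sums share libraries and differ in depth, so the values describe likeness only. Axin2 was most like Ankrd10 (r = 0.885), Rnf43 like Mfge8 (0.886), Znrf3 like Msh6 (0.891), Myc like Nol8 (0.903), Myb like Tra2b (0.9504), Ccnd1 like Rbbp7 (0.956), Ephb2 like 2410002F23Rik (0.938) and Cd44 like Nr2e3 (0.949). Sox9 and Ephb3 shared Tmem9 as their closest gene (0.897 and 0.849). Between members, Ephb3 was most like Sox9 (0.783), while Axin2 and Sox9 were least alike (0.193), and Axin2 and Rnf43 stood at 0.773.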

How the data were processed

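Single cells (7 sorted libraries) and doublets or triplets (3 picked libraries) were profiled by CEL-seq2. Groups were taken from the sample titles. The submitters' processing notes name BWA (0.6.2-r126) and the mm10 build, but which program counted transcripts is not given in the sources used here. For each gene and well, the deposited tables hold a transcript estimate whose values follow the usual correction for molecules that share 1 of 4096 barcodes, as read from the values: undoing it gave whole numbers, within 0.001, for 100% of them. These are not plain counts, so no count model was used.

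Wells with at least 1000 endogenous transcripts were kept, without spike-ins, and no doublet caller was run. From the deposited values, transcripts were summed per library and class (at least 5 wells) and converted to CPM and log2 values with TMM factors of 0.828 to 1.18 over classes and 0.756 to 1.11 over whole libraries. Genes needed at least 3 transcripts in at least 7 sums and 30 in all. Tests used limma 3.58.1 in R 4.3.3 with a trend, on log2(CPM + 10) with the library as a block, or log2(CPM + 1) without a block for whole libraries. Classes come from the same libraries, which is what pairs them. Calls are at a Benjamini-Hochberg adjusted p under 0.05. The fits were tested on data simulated from a shared mean profile with set changes and the same spread for all genes. No library effect was simulated, so that test does not show how the fits behave on these sums. Library totals, other pseudocounts, filters, weights and class rules, single experiment codes and the omission of each library were tried. The 10 genes and all lists were chosen with earlier results of these data known; genes named from other lists are the called ones with the largest differences, up to 6 per list and comparison. Sorted libraries carry the codes GK5a (replicates 1 to 5) and GK5b (6 and 7), and picked libraries carry JC codes. Sorted replicate 6 differed from the other sorted libraries in its wells, with 85 that met several rules and 9 that met none.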

Additional observations from a re-analysis of the deposited data

Results flagged for a closer look

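In sorted cycling Lgr5-negative wells, Ephb2 in sorted replicate 4 was at 81.1 CPM, apart from the next library at 60.1 CPM, and Ephb3 in sorted replicate 2 was at 39.6 CPM, with the next at 26.5 CPM. In goblet wells, Cd44 in sorted replicate 1 was at 26.0 CPM, with the next library at 9.57 CPM. In absorptive wells, sorted replicate 4 alone held Znrf3 (22.4 CPM), Ephb2 (14.96 CPM) and Cd44 (14.96 CPM), which were at 0 in the other 4 libraries. In Lgr5-positive Mki67-negative wells, Myc in sorted replicate 1 was at 280 CPM, with the next library at 162 CPM. Over all used wells, sorted replicate 6 had the lowest Ccnd1 (143 CPM, next 189 CPM) and the lowest Cd44 (33.0 CPM, next 76.5 CPM). Such a distance was found in 9 of 70 sets of libraries examined, and chance alone gives about 1 in 20. That rate does not hold for the 3 absorptive sets, in which the other 4 libraries are tied at 0.

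The log2 difference between cycling Lgr5-negative and Lgr5-positive wells was not the same in picked and sorted libraries for Sox9 (1.25 ± 0.20 higher in picked, adjusted p = 0.0106, limma) and Ephb3 (1.52 ± 0.32 higher in picked, adjusted p = 0.0356). Between the GK5b and GK5a sorted libraries, 30 differences of the 10 genes between cycling, goblet and Lgr5-positive wells were tested. Their lowest adjusted p was 0.859 (Sox9, goblet against Lgr5-positive, 0.77 ± 0.26 higher in GK5b, limma). The estimates ran from -0.54 ± 0.50 (Myc, cycling against Lgr5-positive) to 1.70 ± 0.50 (Myc, goblet against cycling). In each of these comparisons 0 of 10457 genes were called, with few GK5b libraries. The lack of calls therefore does not show that the codes are alike.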

How the results depend on the processing

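Comparisons are named in short: cycling, goblet, Paneth and absorptive are against Lgr5-positive wells, Mki67 is the contrast within Lgr5-positive wells, and Lgr5 among dividing that within Mki67-positive wells. The comparisons as reported called 5 of the 10 and 158 genes (cycling), 10 and 4162 (goblet), 8 and 7599 (Paneth), 10 and 6284 (absorptive), 7 and 3623 (goblet against cycling), 10 and 5877 (absorptive against cycling), 1 and 805 (Mki67), 6 and 504 (Lgr5 among dividing) and 1 and 3152 (picked). Of 1802 alternative values of the 10 genes, 1604 kept direction and side of the threshold, 114 lost a call, 33 gained one and 51 turned sign, and the cause was not tested. With a pseudocount of 1, 1 of the 10 (cycling), 4 (goblet against cycling) and 33 genes (cycling) were called. Without the filter on low values, 2 of the 10 (cycling) were called, and 256 genes (Lgr5 among dividing) were called. With GK5a libraries only, 1 of the 10 (cycling) and 0 (Mki67) were called, 66 genes (cycling), 2651 (goblet), 2327 (goblet against cycling) and 513 (Mki67) were called, and the sign turned for Axin2 0.0091 (Mki67). With wells thinned to 2000 transcripts before classing, 9 of the genes were tested, without Znrf3, of which 1 (cycling), 4 (goblet against cycling), 0 (Mki67) and 1 (Lgr5 among dividing) were called, 30 genes (cycling), 1189 (goblet), 3580 (Paneth), 2953 (absorptive), 1111 (goblet against cycling), 2978 (absorptive against cycling), 123 (Mki67) and 142 (Lgr5 among dividing) were called, and the sign turned for Sox9 -0.95 and Ephb3 -1.48 (Paneth), Axin2 0.30, Myb -0.56, Ccnd1 -0.31 and Ephb2 -2.06 (Mki67) and Rnf43 -0.44, Myc -0.34, Myb -0.41 and Ephb2 -1.41 (Lgr5 among dividing). With overlapping classes, 2 of the 10 (cycling) were called, 99 genes (cycling), 2708 (goblet) and 2281 (goblet against cycling) were called, and the sign turned for Sox9 -0.12 (Paneth). In picked libraries only, 0 of the 10 (cycling) were called, 6 genes (cycling) were called, and the sign turned for Ccnd1 -0.38 (cycling). At equal depth, 8 of the 10 (cycling) and 0 (Paneth) were called, 1647 genes (cycling), 20 (Paneth), 338 (Mki67) and 1063 (Lgr5 among dividing) were called, and the sign turned for Znrf3 -0.13 (Mki67). With library totals in place of TMM, 2 of the 10 (Mki67) and 2 (picked) were called, and the sign turned for Sox9 -0.0901 (Paneth), Znrf3 -0.0195 (Mki67) and Ccnd1 -0.24 (picked). With a pseudocount of 30, 2 of the 10 (Mki67) were called, and the sign turned for Sox9 -0.058 (Paneth) and Znrf3 -0.00603 (Mki67). Without the library block, that is with no replicate block, 0 of the 10 (Mki67) were called, 246 genes (Lgr5 among dividing) were called, and the sign turned for Sox9 -0.0081 (Paneth) and Znrf3 -0.049 (Mki67). Without wells that held immune transcripts, 2 of the 10 (Mki67) were called, and the sign turned for Znrf3 -0.0069 (Mki67). With Lgr5-positive wells defined from 2 transcripts, none of the 10 (0, Mki67) was called, 294 genes (cycling) and 810 (Lgr5 among dividing) were called, and the sign turned for Sox9 -0.57 (Paneth) and Znrf3 -0.12 (Mki67). With GK5b libraries only, 1 of the 10 (Lgr5 among dividing) was called, 32 genes (cycling) and 7 (Lgr5 among dividing) were called, and the sign turned for Znrf3 0.073 and Ephb2 0.21 (goblet against cycling). With the mean of CPM per well, 4 of the 10 (picked) were called, and the sign turned for Ccnd1 -0.30 (picked). Against GK5a libraries only, 4 of the 10 (picked) were called, and the sign turned for Ephb2 0.000185 (picked). Within Lgr5-positive wells, 4 of the 10 (picked) were called, 1572 genes (picked) were called, and the sign turned for Ephb2 0.027 and Ephb3 -0.74 (picked). Within cycling wells, 3 of the 10 (picked) were called, and the sign turned for Ccnd1 -0.21 and Cd44 0.16 (picked). With at least 10 wells per sum, 350 genes (cycling) were called. With weights by number of wells, 1206 genes (cycling) were called, and the sign turned for Sox9 -0.16 (Paneth). Against GK5b libraries only, 1459 genes (picked) were called, and the sign turned for Axin2 0.17, Rnf43 0.34, Myc 0.14 and Cd44 0.067 (picked). With each library left out in turn, 1 to 4 of the 10 and 64 to 139 genes (cycling), 9 to 10 and 3464 to 4008 (goblet), 7 to 8 and 6694 to 7409 (Paneth), 10 and 5605 to 6044 (absorptive), 5 to 7 and 3006 to 3537 (goblet against cycling), 9 to 10 and 5143 to 5697 (absorptive against cycling), 0 to 3 and 492 to 745 (Mki67), 5 to 6 and 243 to 559 (Lgr5 among dividing) and 1 to 5 and 2439 to 3214 (picked) were called. Signs that turned then were those of Sox9 -0.34 to 0.81 (Paneth), Axin2 -0.29 to 0.018 (Mki67), Znrf3 -0.068 to 0.079 (Mki67), Ephb2 -0.013 to 0.17 (Mki67), Znrf3 -0.78 to 0.28 (picked) and Ephb2 -0.088 to 0.027 (picked). Among these, the gene count (cycling) was 64, 74, 90, 85, 71 and 75 without sorted replicate 1, 2, 3, 4, 5 and 7, the gene count (Lgr5 among dividing) was 243, 311, 281 and 334 without sorted replicate 2, 4, 5 and 7, and that for Mki67 was 492 without sorted replicate 2. Of the 10, the Mki67 contrast called 0 without sorted replicate 3, 3 without 5 and 2 without 6, and picked against sorted called 5 without sorted replicate 6. Besides the losses given with the results, Znrf3 lost its Paneth call without sorted replicate 2 (adjusted p = 0.0782) or 4 (0.0659), Rnf43 its call in goblet against cycling without sorted replicate 4 (0.0516), and Znrf3 there without any one of sorted replicates 1 to 5 (0.0554 to 0.164, limma). Where 0 of the 10 were called by limma, the number at an unadjusted p under 0.05 was 2 (Mki67, GK5a libraries), 4 (Mki67, thinned wells), 3 (Mki67, no replicate block), 2 (Mki67, from 2 transcripts), 4 (Mki67, without sorted replicate 3), 5 (Paneth, equal depth) and 1 (cycling, picked libraries). The library block changed no other total by over 1.5 times; by direction, without it 19 genes in place of 34 were called higher (cycling), and 151 in place of 229 higher and 95 in place of 275 lower (Lgr5 among dividing). No paired analysis was possible for picked against sorted because their replicate numbers follow accession order and pair no libraries. Paneth sums, with the fewest wells, limit what depth can show. The values at equal depth, in picked libraries only, with overlapping classes in GK5a libraries and of the library-group interactions were chosen after seeing the data.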

Other observations

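Other genes of the pathway were compared between picked and sorted libraries over all used wells, where 14.2% of all genes were called higher and 16% lower and the all-gene median log2 difference was -0.09. Of 16 further crypt targets tested, 4 were lower and none higher in picked libraries, with a list median of 0.04, among them the cotransporter Slc12a2 (-1.06 ± 0.19, log2 ± SE, adjusted p = 0.00159, limma) and the BMP coreceptor Rgmb (-1.48 ± 0.38, adjusted p = 0.012). Of 10 receptors, 5 were lower and 1 higher, including the R-spondin receptor Lgr4 (-0.77 ± 0.18, adjusted p = 0.00713), with Lrp5, a coreceptor of Wnt, as the higher one (1.499 ± 0.49, adjusted p = 0.0346). Of 15 transduction genes, 3 were lower, namely Apc, Csnk1a1 and Ctnnb1, and Dvl1 was higher. Of 11 nuclear partners, 3 were lower and 1 higher, and Tcf7l2 was among the lower ones (-1.18 ± 0.19, adjusted p = 0.000607). Of 4 ligand and secretion genes, the ligand Wnt4 was higher (2.62 ± 0.25, adjusted p = 1.84e-05) and Wls, which carries Wnt proteins to the surface, was lower (-0.79 ± 0.17, adjusted p = 0.00431). Scaled by library totals alone, the all-gene median was -0.40, and the list values were not recomputed on that scale.

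Of 19 relatives of the members tested, 5 were higher and 2 lower in picked libraries, against 30.2% of all genes called: Mycn, of the Myc family, was higher (2.06 ± 0.40, adjusted p = 0.00266, limma), while cyclin D2, encoded by Ccnd2, was lower (-1.12 ± 0.15, adjusted p = 0.000195) and cyclin D3, encoded by Ccnd3, was higher (1.69 ± 0.50, adjusted p = 0.0223). Within sorted Lgr5-positive wells, Mybl2, the Myb relative of dividing cells, was higher in Mki67-positive than in Mki67-negative wells (1.62 ± 0.22, adjusted p = 2.23e-05), and Mxd1 was lower (-1.24 ± 0.28, adjusted p = 0.0064). Among dividing wells, Sox4 was higher where Lgr5 was present (1.44 ± 0.22, adjusted p = 0.000305), and Efnb2, a ligand of EphB receptors, was lower (-1.14 ± 0.33, adjusted p = 0.0435).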
